A study of Mus musculus with 36 samples.

Results

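The nuclear-encoded subunits of the mitochondrial respiratory chain were taken as every probe whose gene symbol on the array began with Nduf, Sdha to Sdhd, Uqcr, Cox4 to Cox8 or Atp5. That rule found 119 probes of 81 gene symbols among 45281 probes of 28908 genes. Of these, 106 probes and 77 genes were brighter than the median of their array on at least 3 arrays and entered the tests. Ndufs1, Sdha, Uqcrq and Cox7b2 did not pass this brightness filter. Complex I was represented by 35 tested genes, complex II by 3, complex III by 6, complex IV by 16 and ATP synthase by 14. The complex I count includes 2 assembly factors, Ndufaf1 and Ndufa12l, and the complex IV count includes the supercomplex factor Cox7a2l. The prefixes also picked up 3 further genes that are not subunits, namely Atp5s, Atp5sl and Cox4nb, which are described separately. A further 14 genes match the prefixes only under their present names and were not counted as members.

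The respiratory chain sits in the inner mitochondrial membrane. Complex I and complex II pass electrons from NADH and succinate to ubiquinone, complex III passes them on to cytochrome c, and complex IV hands them to oxygen, while the proton gradient built by complexes I, III and IV drives ATP synthase. Most subunits are encoded in the nucleus and imported, and a small set of core subunits is encoded in mitochondrial DNA. Astrocytes run glycolysis at a high rate beside oxidative phosphorylation, and corticosterone, the main glucocorticoid of mice, acts on transcription through the glucocorticoid receptor, which RU486 (mifepristone) blocks.

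Astrocyte cultures were prepared from the brains of C57B/6 mouse pups aged P0-P2 and grown in serum-containing medium until about confluent. The samples are labelled cortical, although the culture description names cortex or hippocampus. Cultures received vehicle, 100 nM corticosterone, 500 nM RU486 or both agents together, and RNA was taken after 2, 4 or 6 h and hybridised to Illumina bead arrays. The 12 groups held 3 arrays each, all of the same strain, age and culture method. The labels do not say that the 3 arrays of a group came from separate cultures, so the p-values measure the spread between arrays, which may be technical. In RNA from whole cultures, fewer cells of a type and less RNA per cell cannot be told apart. All values below are log2 intensities of the deposited normalised table, on which 1 unit is a 2-fold difference, changes are limma estimates with their standard errors (SE), and a gene is called where its p-value adjusted over all 18935 tested genes is under 0.05.

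Of 10 astrocyte markers 9 were tested, and all 9 lay above the array median on all 36 arrays (S100b did not pass the filter). Markers of other cells were present too: 3 of 6 neuronal, 4 of 7 microglial, 5 of 8 oligodendrocyte lineage and 4 of 5 fibroblast or meningeal markers lay above the median on every array, against 0 of 5 endothelial ones. All 6 genes of a list of glucocorticoid-induced genes rose with corticosterone averaged over the times, by a median of 2.05. All 6 fell when RU486 was added to corticosterone, by a median of 1.78. The list was chosen with earlier results of these data known, so it is no independent check that the treatment acted. The median correlation of an array with the others was 0.960 to 0.990 for 34 arrays, but 0.757 for vehicle 6 h replicate 1 and 0.886 for both agents at 6 h, replicate 3. Because many respiratory chain probes deviated on these 2 arrays, results are given with all 36 arrays, and counts and the main changes also with the other 34.

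Promoter sequences are shown for genes on which the results below turn: Ndufs7, Ndufv1 and Cox5a, which differed between corticosterone alone and corticosterone with RU486, and Sdhd, which differed between the times. Each runs 5′ to 3′ from 250 bases before to 50 bases after the RefSeq transcription start (build GRCm38.p6), and capitals mark matches to one of the motifs searched on both strands. The motifs were GCGCA and GCGC with any 1 base between them for NRF-1, CCGGAAG for ETS factors such as GABP, AAGATGGCG for YY1, TATAAA for the TATA box, and AGAACA and TGTTCT with any 3 bases between them for the glucocorticoid receptor. NRF-1 and GABP are known as activators of many respiratory chain genes.
Ndufs7 (chr10:80249199-80249498, forward strand): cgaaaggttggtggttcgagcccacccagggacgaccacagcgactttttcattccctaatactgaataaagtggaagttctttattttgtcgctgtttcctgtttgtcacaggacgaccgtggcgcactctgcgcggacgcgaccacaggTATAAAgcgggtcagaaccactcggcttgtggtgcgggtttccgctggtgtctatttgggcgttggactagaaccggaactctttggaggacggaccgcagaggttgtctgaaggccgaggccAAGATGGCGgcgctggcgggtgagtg
Ndufv1 (chr19:4012706-4013005, reverse strand): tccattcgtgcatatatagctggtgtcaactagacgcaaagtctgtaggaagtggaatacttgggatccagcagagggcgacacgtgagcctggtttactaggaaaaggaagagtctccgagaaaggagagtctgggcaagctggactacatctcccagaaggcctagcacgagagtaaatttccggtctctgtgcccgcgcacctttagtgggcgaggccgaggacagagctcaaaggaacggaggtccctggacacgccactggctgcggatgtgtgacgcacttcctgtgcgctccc
Cox5a (chr9:57520982-57521281, forward strand): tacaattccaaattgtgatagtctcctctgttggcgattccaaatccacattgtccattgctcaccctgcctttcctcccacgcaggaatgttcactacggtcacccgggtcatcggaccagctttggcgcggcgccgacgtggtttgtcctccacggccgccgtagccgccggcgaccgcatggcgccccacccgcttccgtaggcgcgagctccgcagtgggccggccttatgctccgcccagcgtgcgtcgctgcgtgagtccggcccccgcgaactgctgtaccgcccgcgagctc
Sdhd (chr9:50603800-50604099, reverse strand): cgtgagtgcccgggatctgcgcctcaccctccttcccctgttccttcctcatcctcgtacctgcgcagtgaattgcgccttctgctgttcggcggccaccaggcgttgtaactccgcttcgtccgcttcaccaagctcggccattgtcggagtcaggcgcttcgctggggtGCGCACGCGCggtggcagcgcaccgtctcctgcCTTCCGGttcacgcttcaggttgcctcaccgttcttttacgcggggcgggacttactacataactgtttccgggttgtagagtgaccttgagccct
The Sdhd promoter held 1 NRF-1 and 1 ETS match, the latter on the opposite strand, the Ndufs7 promoter 1 YY1 and 1 TATA match, and neither Ndufv1 nor Cox5a held any of these letters. RefSeq promoters were found for 66 member genes, with 72 promoters in all. The NRF-1 motif occurred in 17 of the 72 (23.6%, against 4.6% of all 32851 promoters of the table), the ETS motif in 16 (22.2%, against 8.86%) and the YY1 motif in 9 (12.5%, against 1.4%). TATAAA was found in 8 (11.1%, against 13.6%), and the glucocorticoid receptor motif in 0 of the 72 and in 3 of all promoters. These matches describe letters in a window and not binding.

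How many of these genes were called with corticosterone alone depended on how the arrays were weighted. With all 36 arrays at equal weight, limma called 0 of 77 members at 2, 4 and 6 h, where it called 0.121%, 0.829% and 1.01% of all genes. The members with an unadjusted p under 0.05 numbered 1, 1 and 26. Counts at an unadjusted p, here and below, are given without the share of all genes and are no result about the members. Averaged over the 3 times, 1 member was called (1.3%, against 2.96% of all genes), with a median change of 0.02 over the members and -0.03 over all genes. Without the 2 arrays the single times gave 0, 1 and 0 calls (all genes 0.676%, 8.83% and 1.56%), and the average gave 4 (5.19%, against 12.4%), 1 higher and 3 lower. With array weights on 36 arrays it called 1, 20 and 5 members at the single times and 16 on average, where it called 2.81%, 38%, 11.6% and 31% of all genes. At 6 h, leaving out vehicle replicate 2 or 3, which leaves the apart array as 1 of 2 vehicle arrays, gave 25 and 31 calls (all genes 19.5% and 24.7%). With 34 arrays at equal weight the 95% interval of the averaged change lay within 0.5 on either side of 0 for 76 of the 77 members, and for 51 with all arrays.

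**Figure D1:**
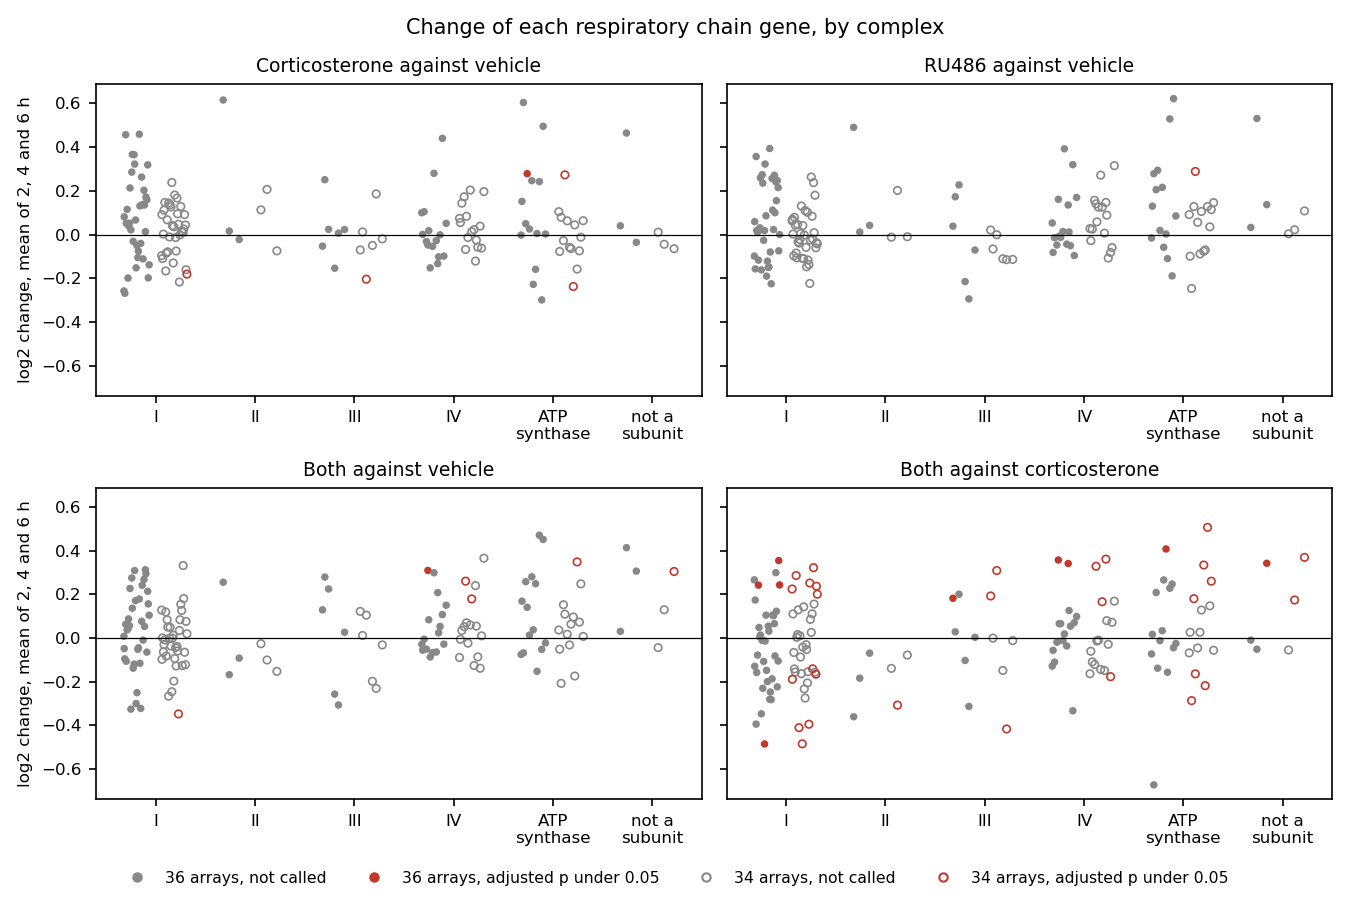
Each point is 1 gene, grouped by complex on the x axis, with its log2 change averaged over 2, 4 and 6 h on the y axis. Filled points use 36 arrays and open points 34, and red marks an adjusted p under 0.05. The range of the points narrows for corticosterone and RU486 against vehicle once the 2 arrays are left out, and red points are most frequent in the comparison of both agents with corticosterone.

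RU486 alone gave 0 calls among the members averaged over the times (all genes 0.0739%), with 5 members at an unadjusted p under 0.05. It gave 1 call without the 2 arrays (1.3%, against 1.49% of all genes), which was Atp5c1. At 2, 4 and 6 h RU486 alone gave 0 calls with 36 arrays (all genes 0%, 0.00528% and 0%), with 3, 9 and 28 members at an unadjusted p under 0.05. Without the 2 arrays it gave 2, 1 and 0 (all genes 3.18%, 4.01% and 0%), named here after their values were seen: at 2 h Atp5c1 (0.52, limma adjusted p = 0.0123) and Atp5f1 (-0.58, adjusted p = 0.0482), and at 4 h Ndufb9 (0.68, adjusted p = 0.0455). Of the 3 other tested Atp5f1 probes, 1 had the same sign at 2 h with 36 arrays and 0 were called. Under array weights the 2 h changes were 0.56 for Atp5c1 (limma adjusted p = 0.00538) and -0.28 for Atp5f1 (adjusted p = 0.319). With array weights the counts were 2, 40 and 2 at the single times and 9 on average (all genes 8.5%, 40.7%, 2.64% and 13.2%), and at 6 h without vehicle replicate 2 or 3 they were 28 and 33 (all genes 22% and 28.1%). With both agents against vehicle, 1 member was called with 36 arrays (1.3%, against 0.512% of all genes) and 5 with 34 (6.49%, against 6.51%), 4 higher and 1 lower. At the single times both agents against vehicle gave 0 calls with 36 arrays (all genes 0%, 0% and 0.0422%), with 0, 2 and 17 members at an unadjusted p under 0.05, and 0, 1 and 0 without the 2 arrays (all genes 0.00528%, 0.555% and 0%). With array weights they gave 0, 37 and 15 calls at the single times and 23 on average (all genes 0.00528%, 40.6%, 15.6% and 25.5%), and at 6 h without vehicle replicate 2 or 3 they gave 5 and 15 (all genes 1.77% and 7.95%). Among the treatment comparisons averaged over the times, adding RU486 to corticosterone gave the highest count with 36 arrays, with 34 and with array weights. Over all genes too this comparison had the highest share with 36 arrays and with 34, and its share with array weights is not given here. Averaged over the times, 9 of 77 members were called (11.7%, against 12.9% of all genes), 8 higher and 1 lower (all genes 7.35% and 5.5%), and 29 without the 2 arrays (37.7%, against 31.2%), 17 higher and 12 lower. All 9 were among the 29. The median change was -0.01 over the members and 0.01 over all genes with 36 arrays. At single times this comparison gave 0, 1 and 0 calls at 2, 4 and 6 h (all genes 0.782%, 3.15% and 1.4%), and 3, 16 and 4 without the 2 arrays (10.3%, 18.2% and 4.47%).

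Within complex I, the core subunit Ndufv1, which binds NADH and the flavin cofactor, was lower with both agents than with corticosterone alone. At 2 h it read 13.19, 12.90 and 13.09 with corticosterone and 12.78, 12.44 and 12.40 with both. At 4 h the values were 12.98, 12.89 and 13.01 against 12.34, 12.46 and 12.40. At 6 h they were 12.87, 12.97 and 12.62 against 12.48, 12.41 and 12.44. The groups did not overlap at any of the 3 times. Averaged over the times Ndufv1 fell by 0.48 (SE 0.12, limma adjusted p = 0.00623), and without the 2 arrays the change was -0.48 (adjusted p = 8.83e-05). It stayed called in all 18 fits that each left out 1 array. Against vehicle, whose arrays ranged from 12.48 to 13.24 at 2 h, the change with corticosterone was 0.37 (95% interval 0.12 to 0.61, adjusted p = 0.104) with 36 arrays and 0.24 without the 2 arrays. The apart vehicle array read 11.52 at 6 h, where the other vehicle arrays read 12.71 and 12.60.

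Ndufs7, the core subunit that carries the last iron-sulfur cluster before ubiquinone, moved the other way. With corticosterone it read 12.23, 11.98 and 11.94 at 2 h, 12.19, 11.77 and 11.85 at 4 h, and 11.81, 11.79 and 11.96 at 6 h. With both agents it read 12.10, 12.18 and 12.33 at 2 h, 12.14, 12.17 and 12.14 at 4 h, and 12.37, 12.32 and 11.95 at 6 h. The groups overlapped at every time, at 6 h only through the apart array, which read 11.95. The average change was 0.24 (SE 0.07, limma adjusted p = 0.0206), and 0.29 without the 2 arrays (adjusted p = 0.000688). The call was lost in 4 of 18 fits that left out 1 array, those without corticosterone 2 h replicate 3, both 2 h replicate 3, corticosterone 4 h replicate 2 or both 6 h replicate 1, with adjusted p-values of 0.0504 to 0.0548. Over the 6 tested core subunits, 1 rose and 1 fell in this comparison, where 7.35% of all genes were called higher and 5.5% lower.

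Among the 27 accessory subunits of complex I, Ndufa5 rose by 0.35 (SE 0.12, adjusted p = 0.0438) and Ndufb6 by 0.24 (SE 0.07, adjusted p = 0.0223) when RU486 was added to corticosterone. Each had 1 other tested probe, whose sign in this comparison is not given here. With both agents against vehicle, that of Ndufa5 had the opposite sign at 2 and 6 h, and that of Ndufb6 at 2 h but not at 6 h. At 6 h Ndufa5 read 11.61, 11.51 and 11.78 with corticosterone and 11.86, 11.79 and 12.88 with both, and the groups did not overlap at 6 h or at 2 h. The value of 12.88 came from the apart array, and without the 2 arrays the change was 0.24 (adjusted p = 0.0346). The Ndufa5 call was lost in 12 of 18 fits without 1 array and that of Ndufb6 in 4, those without corticosterone 2 h replicate 3, 4 h replicate 2, 4 h replicate 3 or 6 h replicate 1, with adjusted p-values of 0.0571 to 0.0586. The Ndufb6 change was 0.20 without the 2 arrays (adjusted p = 0.0115). Ndufb9, another accessory subunit, was the 1 member called at a single time. It read 9.33, 8.57 and 8.61 with corticosterone at 4 h and 9.54, 9.57 and 9.64 with both, a change of 0.74 (SE 0.20, adjusted p = 0.0344, and 0.00857 without the 2 arrays), with no overlap. The call was lost in 5 of 6 fits without 1 array, all but the one without corticosterone 4 h replicate 1, with adjusted p-values of 0.102 to 0.167. The largest and the lowest averaged corticosterone changes in complex I were those of Ndufb7 (0.46, adjusted p = 0.312) and Ndufab1 (-0.27, adjusted p = 0.319), which became 0.17 and -0.11 without the 2 arrays. Of the 2 assembly factors, Ndufaf1 and Ndufa12l (now Ndufaf2), neither was called under any treatment with 36 arrays, and Ndufaf1 was lower by 0.39 with both agents than with corticosterone once the 2 arrays were left out.

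In complex II, 0 of 3 tested subunits were called under any treatment with 36 arrays. Sdhb, the iron-sulfur subunit of succinate dehydrogenase, had the largest averaged corticosterone change of complex II, 0.62 (95% interval -0.15 to 1.38, adjusted p = 0.453), and Sdhc, a membrane anchor, the lowest, -0.02. The Sdhb value rested on vehicle 6 h replicate 1, which read 6.63 where the other vehicle arrays at 6 h read 11.14 and 11.16. Without the 2 arrays the Sdhb change was 0.11 and that of Sdhc -0.07. In complex III, Uqcr (now Uqcr11), the smallest subunit, rose by 0.18 (SE 0.06, limma adjusted p = 0.0455) when RU486 was added to corticosterone. It read 12.84, 13.03 and 13.11 with corticosterone at 6 h and 13.24, 13.26 and 13.16 with both, without overlap, but the groups overlapped at 2 and 4 h and the call was lost in 14 of 18 fits without 1 array, with changes of 0.15 to 0.22. Uqcrh, the hinge protein, and Uqcrfs1, the Rieske iron-sulfur protein, had the largest and lowest averaged corticosterone changes of complex III, 0.25 and -0.15, and 0.01 and -0.05 without the 2 arrays. Uqcrc1, a core protein of complex III, is named after its values were seen: without the 2 arrays it was lower with corticosterone at 4 h (-0.33) and averaged over the times (-0.20, adjusted p = 0.0317), and higher with both agents than with corticosterone (0.31).

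In complex IV, Cox5a, a subunit used in all tissues, was higher with both agents than with corticosterone. At 2 h it read 12.99, 12.90 and 12.75 with corticosterone and 12.86, 13.11 and 13.25 with both, and the groups overlapped. At 4 h the values were 12.78, 12.60 and 12.68 against 13.10, 13.02 and 13.19. At 6 h they were 12.72, 12.61 and 12.89 against 13.16, 13.07 and 13.37. From 4 h on the groups lay apart, as did both agents and vehicle. The average change was 0.36 against corticosterone (SE 0.07, limma adjusted p = 0.000981) and 0.31 against vehicle (SE 0.07, adjusted p = 0.0428), and 0.33 and 0.26 without the 2 arrays. The first call held in all 18 fits without 1 array and the second in 8 of 18. Corticosterone itself left Cox5a within -0.19 to 0.10 of vehicle (95% interval). The complex IV members with the largest and lowest averaged corticosterone changes were Cox7a2l, a factor of supercomplex assembly (0.44, and 0.04 without the 2 arrays), and Cox6b2 (-0.15, and -0.01), both uncalled.

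Of the tissue-restricted isoforms, 6 passed the filter, and Cox4i2, the oxygen-responsive isoform of subunit IV known from lung, was the 1 called, between both agents and corticosterone. It lay near the array median of about 6.8, which limits what its values show. Cox4i2 exceeded its array's median on 9 of the 36 arrays, and all its values with corticosterone lay below about 6.8. Arrays with both agents were among those above, so it passed the filter partly through the group that read higher. With corticosterone it read 6.66, 6.42 and 6.61 at 2 h, 6.42, 6.46 and 6.41 at 4 h, and 6.24, 6.30 and 6.56 at 6 h. With both agents it read 6.82, 6.88 and 7.11 at 2 h, 6.71, 6.69 and 6.83 at 4 h, and 6.73, 6.80 and 6.58 at 6 h. All arrays with both agents lay above all with corticosterone at each time. The change was 0.34 (SE 0.08, limma adjusted p = 0.00337), 0.36 without the 2 arrays, and it was called in all 18 fits without 1 array. Against vehicle Cox4i2 changed by -0.13 with corticosterone (adjusted p = 0.433) and by 0.21 with both (adjusted p = 0.219). The other isoforms, Cox6a2, Cox6b2, Cox7a1, Cox8b and Cox8c, changed by -0.11 to 0.13 between both agents and corticosterone, with no call.

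**Figure D2:**
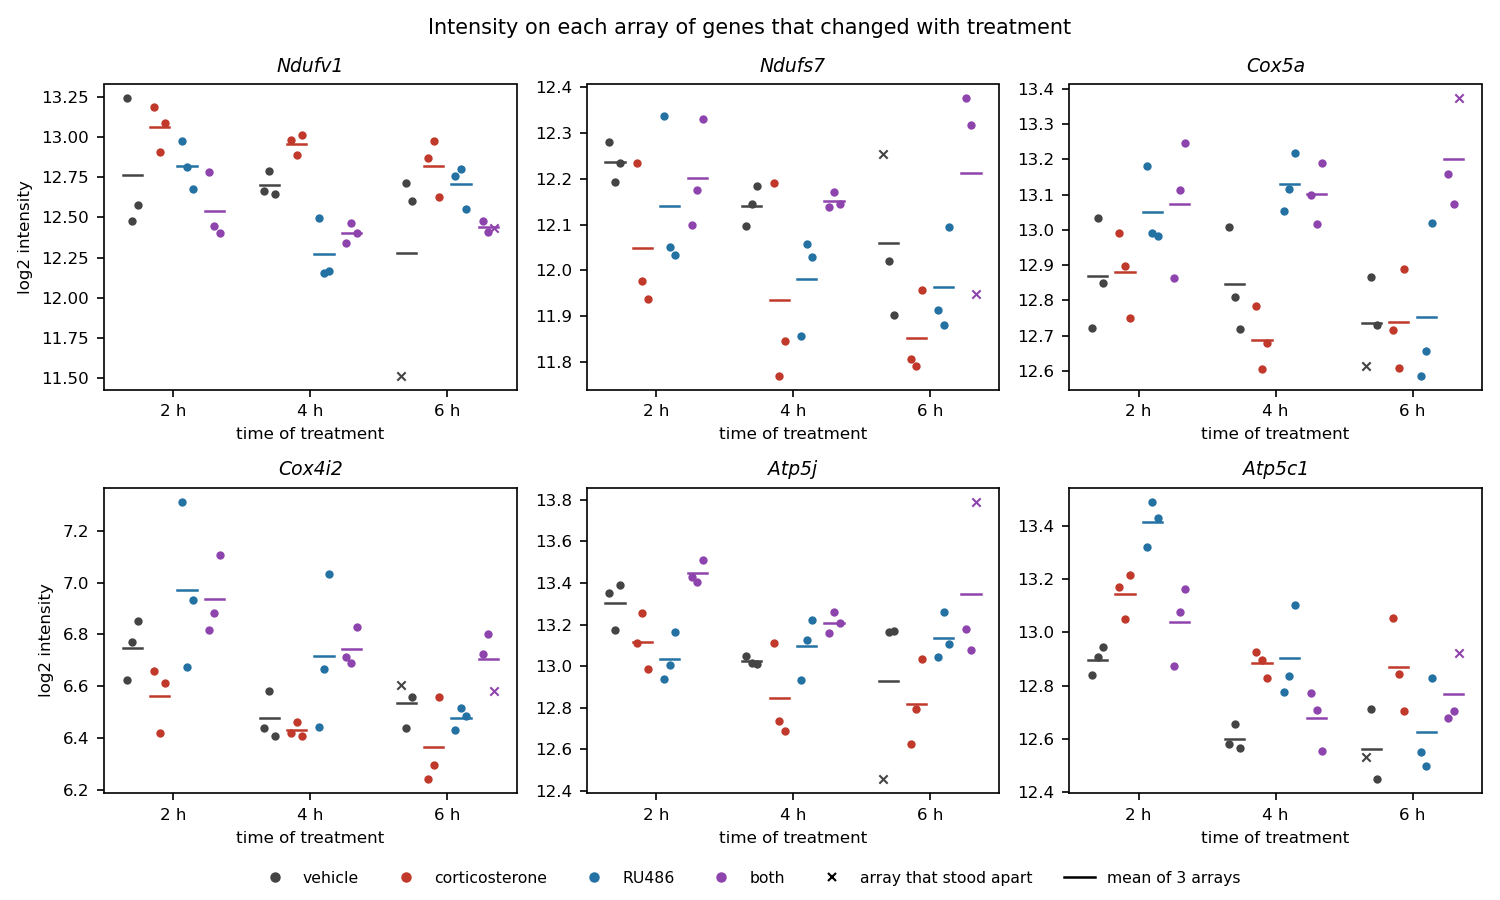
Each point is the log2 intensity of 1 array on the y axis, grouped by time and coloured by treatment, for 6 genes, with bars at the mean of 3 arrays and crosses for the 2 arrays that stood apart. Ndufv1 with both agents sits below corticosterone alone at all 3 times, Cox4i2 and Atp5j sit above it, and Atp5c1 is above vehicle with corticosterone at 2 and 4 h.

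ATP synthase held the 1 member that rose with corticosterone. Atp5c1, the gamma subunit that forms the rotating central stalk, read 12.84, 12.91 and 12.95 with vehicle and 13.17, 13.05 and 13.22 with corticosterone at 2 h. At 4 h the values were 12.58, 12.65 and 12.56 against 12.93, 12.90 and 12.83. At 6 h they were 12.53, 12.71 and 12.45 against 13.05, 12.84 and 12.71. The groups lay apart at 2 and 4 h and overlapped at 6 h, where the highest vehicle array equalled the lowest with corticosterone to within 0.01. The average change was 0.28 (SE 0.06, limma adjusted p = 0.0108), 0.27 without the 2 arrays, and it was called in all 18 fits without 1 array. RU486 alone gave a change of about the same size, 0.29 (SE 0.06), with an adjusted p of 0.0666 with 36 arrays and 0.0181 with 34. With RU486 alone Atp5c1 read 13.32, 13.49 and 13.43 at 2 h, 12.78, 12.84 and 13.10 at 4 h, and 12.55, 12.50 and 12.83 at 6 h. With both agents it read 12.87, 13.08 and 13.16 at 2 h, 12.77, 12.71 and 12.55 at 4 h, and 12.68, 12.70 and 12.92 at 6 h. The change of both agents against vehicle was smaller, 0.14 (95% interval 0.01 to 0.27, adjusted p = 0.324).

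Atp5j, the coupling factor 6 subunit of the peripheral stalk, was higher with both agents than with corticosterone. It read 13.11, 13.26 and 12.99 with corticosterone and 13.43, 13.41 and 13.51 with both at 2 h. At 4 h the values were 13.11, 12.74 and 12.69 against 13.16, 13.26 and 13.21. At 6 h they were 12.63, 12.79 and 13.03 against 13.18, 13.08 and 13.79. The groups did not overlap at any time, and the highest value, 13.79, came from the apart array. The average change was 0.41 (SE 0.10, limma adjusted p = 0.00434), 0.33 without the 2 arrays (adjusted p = 0.000229), and it was called in all 18 fits without 1 array. Atp5f1, the b subunit, and Atp5k, the e subunit, had the largest and lowest averaged corticosterone changes of ATP synthase, 0.60 and -0.30, neither called, and 0.08 and -0.07 without the 2 arrays. Atp5f1 also had the widest SE of all members, 0.45 with 36 arrays.

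Of the 3 genes kept apart from the complexes, Atp5sl (now Dmac2), an assembly factor of the complex I membrane arm, was higher with both agents than with corticosterone by 0.34 (SE 0.07, limma adjusted p = 0.00204), and by 0.37 without the 2 arrays. Its groups lay apart at 2 and 4 h. At 4 h it read 8.85, 8.83 and 8.96 with corticosterone and 9.13, 9.28 and 9.27 with both. Atp5s and Cox4nb were uncalled in every comparison of treatments with 36 arrays.

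A test of the interaction asked whether the effect of RU486 depended on corticosterone. It called 2 of 77 members (2.6%, against 5.97% of all genes), Atp5c1 (-0.43, SE 0.09, limma adjusted p = 0.0037) and Ndufs7 (0.36, SE 0.10, adjusted p = 0.0286). For Atp5c1, adding RU486 changed the value by 0.29 over vehicle and by -0.14 over corticosterone. For Ndufs7 the corresponding changes were -0.12 and 0.24. The Atp5c1 interaction was called in all 36 fits without 1 array and that of Ndufs7 in 30. Without the 2 arrays the interaction called 10 members (13%, against 20.5%), 6 higher and 4 lower. These contrasts share arrays with those above. No member was called for a corticosterone effect, or an effect of adding RU486, that differed between 2 of the 3 times, with 36 or with 34 arrays. Of all genes 0.00528%, 0.0581% and 0% were called for a corticosterone effect that differed between 4 and 2 h, 6 and 2 h, and 6 and 4 h, and 0%, 0.0264% and 0% for adding RU486. Without the 2 arrays the shares were 0.0264%, 0.217% and 0%, and 0.0528%, 0.0898% and 0%. With 36 arrays 1 to 5 members had an unadjusted p under 0.05 in each of these 6 tests.

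More of these genes were called between times than between treatments. Averaged over the 4 treatments, 21 of 77 members differed between 4 and 2 h (27.3%, against 37.7% of all genes), 11 higher and 10 lower, and 47 without the 2 arrays (61%, against 61.6%). Between 6 and 2 h the count was 31 (40.3%, against 45.5%), 15 higher and 16 lower, and 45 without the 2 arrays (58.4%, against 58.4%). Between 6 and 4 h it was 0 (all genes 0.0317%, and 0.359% without the 2 arrays, where it was also 0), with 7 members at an unadjusted p under 0.05. The members' shares lay near or below those of all genes. No label names a batch, and whether the 2 h arrays were processed apart from the later ones cannot be told apart from time.

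Sdhd, the small membrane anchor of complex II, read 7.99, 7.69 and 8.17 with vehicle at 2 h, 8.53, 8.55 and 8.98 at 4 h, and 10.67, 9.00 and 8.91 at 6 h, the first of these from the apart array. With corticosterone it read 8.33, 8.01 and 8.12 at 2 h, 9.43, 8.81 and 8.55 at 4 h, and 9.45, 9.02 and 8.91 at 6 h. All 4 h and 6 h arrays lay above the 2 h arrays of the same treatment, in all 4 treatments. The change was 0.87 at 4 h and 1.24 at 6 h against 2 h (SE 0.16 for each, adjusted p = 0.000151 and 1.14e-06), and the 6 h change was 1.00 without the 2 arrays. Atp5a1, the catalytic-ring alpha subunit of ATP synthase, rose by 1.07 at 4 h and 1.24 at 6 h (SE 0.11). With vehicle it read 9.54, 9.76 and 9.68 at 2 h, 10.22, 10.22 and 10.67 at 4 h, and 11.61, 10.74 and 10.56 at 6 h. Its 4 h and 6 h arrays also lay above those at 2 h in each treatment. In total 5 members lay wholly above the 2 h arrays in each treatment at 4 h (6.49%, against 6.03% of all genes), which were Atp5a1, Cox6c, Ndufab1, Sdhb and Sdhd, and 5 at 6 h (against 4.86%), which were Atp5a1, Cox7a2, Ndufb10, Ndufb9 and Sdhd. Wholly below were 3 at 4 h (3.9%, against 3.96%), which were Atp5c1, Atp5g3 and Cox4nb, and 1 at 6 h, Cox4nb (1.3%, against 1.96%).

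Complex I supplied further genes that were higher at the later times. Ndufb9 rose by 0.97 at 4 h and 1.08 at 6 h (SE 0.10), Ndufb10 by 0.63 and 0.85 (SE 0.12), and Ndufb5 by 0.70 and 0.82 (SE 0.13), all accessory subunits of the membrane arm. The 2 arrays are both 6 h arrays, and without them the 6 h changes were 1.10, 0.71 and 0.66. Ndufb2 rose by 0.85 at 6 h (SE 0.18), and by 0.62 without the 2 arrays. In complex IV, Cox6c rose by 0.91 at 4 h and 0.79 at 6 h (SE 0.17), and by 0.73 at 6 h without the 2 arrays. Other ATP synthase subunits fell. Atp5c1 fell by 0.36 at 4 h and by 0.42 at 6 h (SE 0.06). Atp5g3, a source of the c subunit of the rotor ring, fell by 0.34 at 4 h and by 0.27 at 6 h (SE 0.05). The 6 h changes of Atp5c1 and Atp5g3 were -0.43 and -0.33 without the 2 arrays. At 2 h the Atp5g3 arrays ranged from 14.70 to 14.96 with vehicle, and at 4 h from 14.36 to 14.52. Ndufs6, an accessory subunit of complex I, fell by 0.43 at 4 h (SE 0.10). Of the 14 ATP synthase genes, 2 rose and 4 fell at 4 h, where 37.7% of all genes were called.

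**Figure D3:**
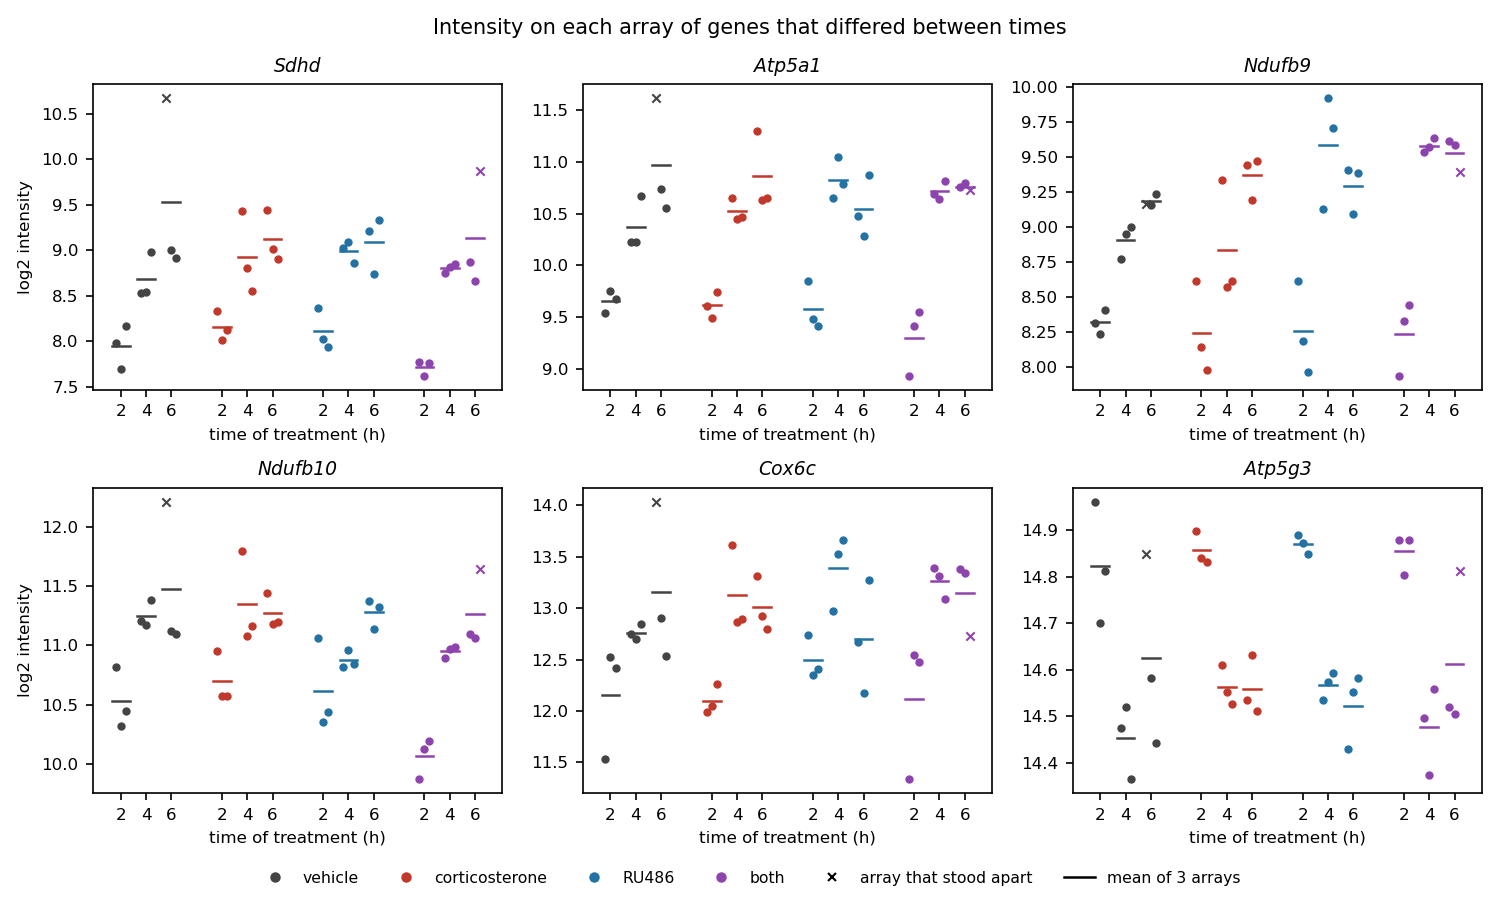
Each point is the log2 intensity of 1 array on the y axis at 2, 4 or 6 h, side by side for vehicle, corticosterone, RU486 and both agents, for 6 genes, with bars at the mean of 3 arrays and crosses for the 2 arrays that stood apart. Sdhd and Atp5a1 are higher at 4 and 6 h than at 2 h in every treatment and Atp5g3 is lower at 4 h.

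In vehicle alone, 23 members were called between 6 and 2 h with 36 arrays (29.9%, against 19.9% of all genes), 13 higher and 10 lower, but 8 with 34 (10.4%, against 11.2%), 5 higher and 3 lower. The 7 called in both were Sdhd, Atp5a1, Ndufb9, Atp5h and Ndufb10, all higher, and Ndufa12 and Cox4nb, both lower. Sdhd differed by 1.58 with and by 1.01 without the apart array, Atp5h by 0.69 and 0.51, and Cox4nb by -1.91 and -0.38. Leaving out vehicle 6 h replicate 1 by itself left 3 calls, and leaving out replicate 2 or 3 of that group raised the count to 48 and 50. The shares of all genes in these fits are not given here. The counts therefore show how far the member count rests on single arrays, and are no result about the members.

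The respiratory chain probes showed how the 2 arrays stood apart. On vehicle 6 h replicate 1, 39 of the 106 member probes read over 1 log2 unit below the mean of the other 2 arrays and 23 read over 1 above it (36.8% and 21.7%, against 18.7% and 19.7% of all probes). On both agents 6 h replicate 3 the counts were 22 below and 8 above (20.8% and 7.55%, against 12.7% and 7.65%). Sdhb read 6.63 on the vehicle array against a mean of 11.15 on the other 2. The same 22 probes were over 1 lower on both arrays and 5 were over 1 higher on both. Falls over 1 were fewest and rises over 1 most frequent among dim probes. Of 41 probes at 12 or over, 19 read lower by over 1 and 2 higher on the vehicle array. Of 38 between 9 and 12 it was 19 and 8, and of 27 probes under 9 it was 1 and 13. Dim probes lie near the lowest intensities and have little room to read lower by over 1, which limits the count of falls under 9. Probes of the same gene could move in opposite directions, in 3 of 23 genes with several tested probes, Atp5f1, Ndufc2 and Ndufs4. The cause of these deviations was not tested. Corticosterone 4 h replicate 1 was also higher than the other 2 arrays of its group in 66 of the 77 members, by a median of 0.38.

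**Figure D4:**
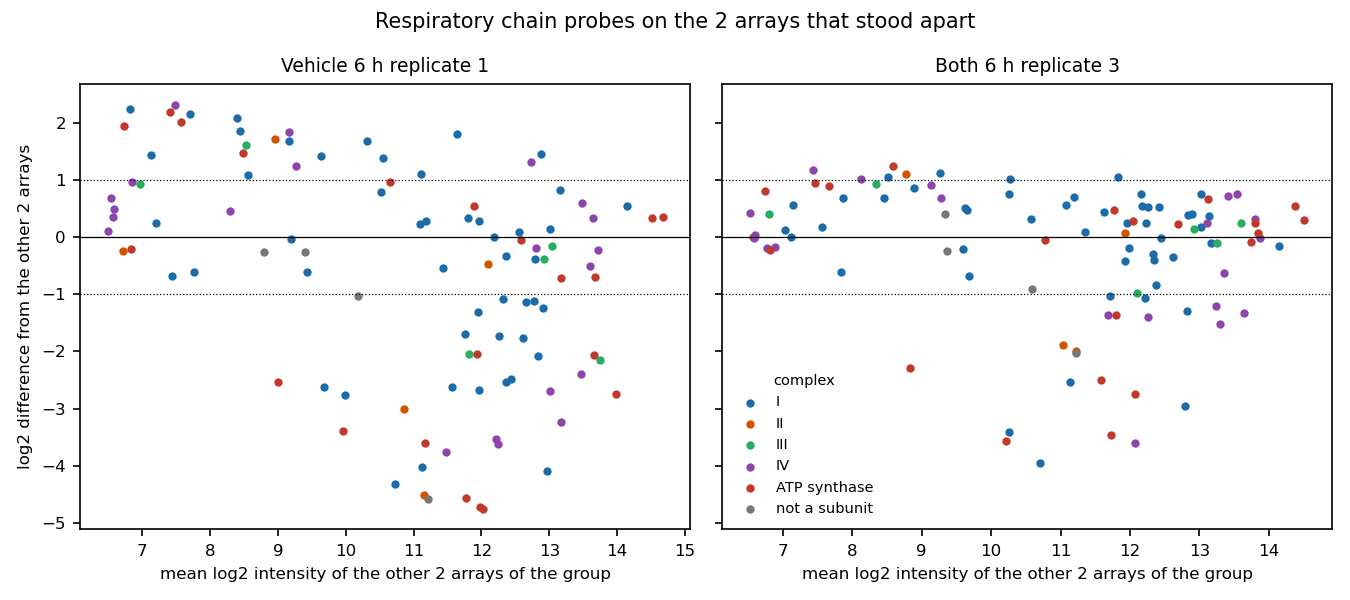
Each point is 1 of 106 respiratory chain probes, with the mean log2 intensity of the other 2 arrays of the group on the x axis and the difference of the array from that mean on the y axis, coloured by complex. Dotted lines mark a difference of 1. On the vehicle array nearly all probes over 1 lower lie at 9 or over, and probes over 1 higher are most frequent under 9.

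Other genes of the pathway were read from lists. Of 8 probes' genes annotated as encoded in mitochondrial DNA, 0 were called for corticosterone or for RU486 added to it, averaged over the times (all genes 2.96% and 12.9%). At 4 h against 2 h 5 rose and 1 fell, where 37.7% of all genes were called. The counts at 4 h were the same without the 2 arrays, where 61.6% of all genes were called, and 1 gene was then called lower with RU486 added to corticosterone. Those that rose were mt-Nd1 (0.99), mt-Nd4 (0.52), mt-Nd4l (1.39), mt-Co2 (1.58) and mt-Atp6 (1.35), and mt-Cytb fell by 0.25. The update of symbols through synonyms gave the mt-Atp6 probe the name Gm10925, and whether it reads the mitochondrial gene was not tested. At 6 h the counts were again 5 and 1, with and without the 2 arrays (all genes 45.5% and 58.4%). Among 13 tested regulators of mitochondrial gene expression, 2 fell with corticosterone averaged over the times, where 1.47% of all genes were called lower. These were Gabpb1, a subunit of GABP (-0.32, SE 0.06, limma adjusted p = 0.000497), and the coactivator Ppargc1b (-0.29, SE 0.07, adjusted p = 0.014). With RU486 added to corticosterone both rose, by 0.32 and 0.42, while Nrf1 (-0.43, adjusted p = 0.0297) and Polrmt, the mitochondrial RNA polymerase (-0.29, adjusted p = 0.0267), fell. With 34 arrays Gabpb1 and Ppargc1b changed by -0.32 and -0.26 with corticosterone, both called (all genes 12.4%). The regulators called with RU486 added then numbered 5 higher and 4 lower (all genes 31.2%). In the tricarboxylic acid cycle 0 of 13 genes were called with corticosterone, and 3 rose (Dlst, Ogdh and Fh1) and 1 fell (Idh3a) with RU486 added, where 12.9% of all genes were called. On 34 arrays the counts were 3 lower with corticosterone (all genes 12.4%), and 4 higher and 3 lower with RU486 added (all genes 31.2%). Of 26 tested assembly factors outside the prefixes, 0 were called with corticosterone (all genes 2.96%). With RU486 added 1 rose and 2 fell (all genes 12.9%). With the 34 arrays 2 rose and 1 fell with corticosterone (all genes 12.4%), and 5 rose and 7 fell with RU486 added (all genes 31.2%).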

How the data were processed

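RNA from 36 samples in 12 groups of 3 was measured on Illumina bead arrays with 45281 probes. The authors deposited normalised intensities per probe, made with GenomeStudio per the submitters' processing notes. The normalisation method is not given in the sources used here. Array medians of the deposited intensities lay between 110.5 and 111.2. Their log2 was taken here, and a probe was kept where it exceeded its array's median on at least 3 arrays. The kept probe with the highest mean stood for its gene. Symbols came from the non-normalised table and were updated through RefSeq synonyms. The 72 per-sample columns of that table match no sample's label and were not used.

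One limma model (R 4.3.3, limma 3.58.1) was fitted to 12 group means over 18935 genes, with Benjamini-Hochberg adjustment over all of them and a threshold of 0.05. It was tested on simulated data with independent noise and no arrays that stood apart, with changes added only to corticosterone at 4 h. The simulation cannot show how the model behaves with the 2 arrays that stood apart. Figures were drawn with matplotlib 3.10.9. The small number of arrays in each group limits precision. The members and lists were chosen with earlier results of these data known. Members named with values are up to 6 called with the largest rise and up to 6 with the largest fall per contrast, the extremes of each complex under corticosterone, and the tissue-restricted isoforms. Contrasts between times averaged over treatments, effects compared between times, and array weights without the 2 arrays were added after seeing the data. Alternatives changed the brightness filter, the background (normexp, offset 50), the probe choice, array weights, the variance prior, the groups fitted, a replicate block and the arrays included.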

Additional observations from a re-analysis of the deposited data

Results flagged for a closer look

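For 2 members the effect of RU486 differed between cultures with and without corticosterone, by the interaction term itself. For Atp5c1, the gamma subunit of ATP synthase, the interaction was -0.43 (SE 0.09, limma adjusted p = 0.0037). For Ndufs7, a core subunit of complex I, it was 0.36 (SE 0.10, limma adjusted p = 0.0286). The Ndufs7 call was lost in 6 of the alternative fits and the Atp5c1 call in 0. Their values per array are given in the text above.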

How the results depend on the processing

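Array weights and leaving out the 2 arrays that stood apart both raised most counts of called members, and vehicle at 6 against 2 h fell under both. Without the 2 arrays the counts that moved by over 1.5 times, beside those of RU486 or both agents against vehicle at single times given above, were 1 for corticosterone at 4 h, 4 for its average, 1 for RU486, 5 for both agents against vehicle, 3, 16, 4 and 29 for both agents against corticosterone at 2, 4 and 6 h and on average, 10 for the interaction, 8 for vehicle at 6 against 2 h and 47 for 4 against 2 h. With array weights on 36 arrays they were 1, 20, 5 and 16 for corticosterone at 2, 4 and 6 h and on average, 9 for RU486, 23 for both agents against vehicle, 8, 45, 32 and 47 for both agents against corticosterone, 29 for the interaction, 13 for vehicle, and 54, 50 and 15 for 4 against 2, 6 against 2 and 6 against 4 h. With weights and without the 2 arrays, added after seeing the data, they were 1, 20, 5 and 16, then 12, 22, then 8, 45, 34 and 46, then 30, 13, and 55, 51 and 16, in the same order. Fitting only the groups compared gave 3 for corticosterone at 4 h, 0 for both agents against vehicle, 1 and 20 for both agents against corticosterone at 2 and 4 h, 0 for vehicle and 41 for 4 against 2 h. An intensity trend with a robust prior gave 0 for both agents against vehicle and 0 for both agents against corticosterone at 4 h. The cause of these shifts was not tested. Shares of all genes with array weights are given above only for comparisons against vehicle. Counts in this section without a share of all genes show how the member count moved with the processing, and are no result about the members. Leaving out 1 array at a time gave 0 to 31 calls for corticosterone at 6 h (25 and 31 without vehicle 6 h replicate 2 and 3), 1 to 2 for its average, 0 to 1 for RU486, 0 to 3 for both agents against vehicle, 0 to 1, 0 to 2 and 5 to 11 for both agents against corticosterone at 4 h, 6 h and on average (5 without corticosterone 2 h replicate 3 or 4 h replicate 2), 1 to 5 for the interaction, 3 to 50 for vehicle, 20 to 24 for 4 against 2 h and 27 to 43 for 6 against 2 h. Of 1363 values for single members, 1270 kept direction and call, 83 lost the call, 4 gained it and 6 changed sign, all uncalled corticosterone averages: Sdhc, whose values without 1 array ran from -0.075 to 0.016, at 0.0031, 0.014 and 0.016 without vehicle 4 h replicate 1, corticosterone 6 h replicate 2 or vehicle 6 h replicate 3, Uqcrh at -0.000665 with weights and without the 2 arrays, and Cox6b2 at 0.048 with weights and 0.050 with weights and without the 2 arrays.

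Deviations of arrays from their group means were correlated between groups of the same time. At 2 h same-numbered arrays gave 0.226 to 0.571 for replicate 1, 0.13 to 0.356 for replicate 2 and -0.114 to 0.409 for replicate 3. Arrays of replicates 1 and 2 gave -0.538 to -0.121, those of 1 and 3 -0.54 to 0.165, and those of 2 and 3 -0.148 to 0.507. The median between replicates 2 and 3 was 0.209, against 0.23 within replicate 2 and 0.125 within replicate 3. Arrays that deviated together at 2 h therefore did not always share a number. At 4 h the medians of same-numbered arrays were -0.026, -0.023 and -0.037, with a lowest value of -0.312 for replicate 1. At 6 h their lowest value was -0.785. With the replicate number as a block, both agents against vehicle gave 2 calls, and the other counts stayed within 1.5 times. With the block and without the 2 arrays the counts were 1 and 5 for corticosterone at 4 h and on average, 1 for RU486, 9 for both agents against vehicle, 6, 19, 4 and 32 for both agents against corticosterone, 14 for the interaction, 11 for vehicle and 47 for 4 against 2 h. No share of all genes is given for the fits with a block.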
